A study of Mus musculus and Homo sapiens with 22 samples.

Results

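The bile acid synthesis and transport genes were a set of 10 genes: Nr0b2, Nr1h4, Cyp7a1, Cyp8b1, Cyp27a1, Baat, Slc27a5, Slc10a1, Abcb11 and Abcb4. They were chosen by name, and a peak was assigned to a gene when its summit lay in the gene body or within 50 kb of it. By this rule the genes held 187 of the 50159 liver peaks, 33 of the 40531 peaks of mouse embryonic fibroblasts (MEFs), and 20 of the 14369 peaks of Hep3B cells under their human symbols. Each of these peaks belonged to the window of a single gene. Mouse positions are given in mm10 and human ones in hg38.

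PROX1 is a homeodomain transcription factor made by hepatocytes and also by other cell types, among them lymphatic endothelial cells and some neural stem cells. CUT&RUN, which cuts and releases the DNA next to an antibody bound in intact nuclei, was used to map it in 22 samples of 6 groups. Liver nuclei of untreated wild-type C57BL/6J mice of 2 to 3 months received an antibody to PROX1 itself (5 samples) or IgG (5). C57BL/6N MEFs from E13.5 embryos carried rtTA and doxycycline-inducible FLAG-Prox1 lentivirus, and puromycin-selected Hep3B hepatocellular carcinoma cells carried an inducible human PROX1 lentivirus. Both cultures were given 2 µg/ml doxycycline for 2 days and were profiled with a FLAG antibody (3 samples each) or IgG (3 each). Each of the 3 lists was called over all samples of 1 antibody group. The lists therefore carry no replicate spread, the depth behind them is unknown, and no difference below was tested. Liver differed from the cultures in tissue, antibody and origin of the factor at once, so these cannot be told apart, and Hep3B differed from MEFs in species as well.

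Hepatocytes make bile acids from cholesterol, starting with the 7α-hydroxylase CYP7A1 or, on the alternative route, the sterol 27-hydroxylase CYP27A1. CYP8B1 adds the 12α-hydroxyl group of cholic acid, and SLC27A5 and BAAT activate bile acids with coenzyme A and join them to taurine or glycine. SLC10A1 takes bile acids up from the blood, ABCB11 exports them into bile, and ABCB4 moves the phosphatidylcholine that accompanies them. FXR, the product of Nr1h4, senses bile acids and switches on Nr0b2, whose product SHP holds back Cyp7a1 and Cyp8b1.

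In liver, all 10 genes had a summit within 1 kb of an annotated transcription start site (95% Wilson interval 72.2 to 100%). The share over all 21911 mouse protein-coding genes was 28.3%. In MEFs, 1 of the 10, Abcb4, had such a peak (1.79 to 40.4%), against 56.5% of the same genes. In Hep3B cells, 2 of the 10, NR0B2 and SLC27A5, had one (5.67 to 51.0%), against 45.2% of 20007 human protein-coding genes. The intervals cover counting error only. The order of the lists was thus opposite to that over all genes, where MEFs had the highest share and liver the lowest.

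The promoters of the set were poor in CpG. Within 500 bases of the 5′-most start site, the median ratio of observed to expected CpG was 0.252 for the 10 mouse genes and 0.552 over 21895 genes. Among the mouse genes, 9 lay below the limits used for a CpG-rich promoter (a ratio of at least 0.6 and at least 50% GC). Abcb4 was the exception, at 0.779 and 62.1% GC, and it was the gene with a MEF promoter peak. Over all CpG-poor promoters, 18.7% had a summit in liver and 29.8% in MEFs, while the 9 genes had 9 and 0. In human, CYP27A1 alone of the 10 was CpG-rich (0.838) and had no promoter peak. The other 9 held 2 promoter peaks, beside 22.0% of CpG-poor human promoters, so the Hep3B count was close to that background. CpG-rich promoters had a summit in 40.3%, 90% and 62.1% of cases in liver, MEFs and Hep3B cells.

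**Figure D1:**
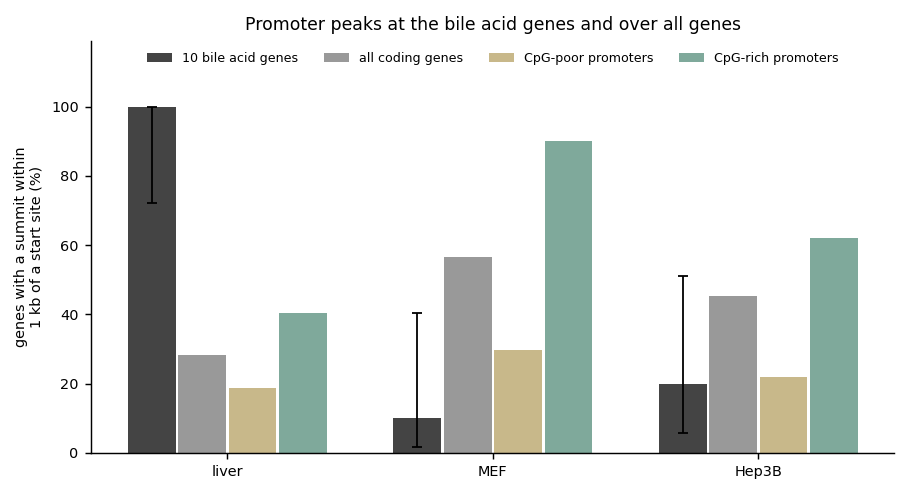
Share of genes (%) with a summit within 1 kb of an annotated start site in each list, for the 10 bile acid genes (dark bars, with 95% Wilson intervals), all protein-coding genes, and genes with CpG-poor or CpG-rich promoters. The bile acid genes stood at 10 of 10 in liver, 1 of 10 in MEFs and 2 of 10 in Hep3B cells.

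The DNA under the promoter summits of 9 of the genes is shown to compare what their strongest liver promoter peaks cover. Each line gives the mm10 sequence from 50 bases before to 50 bases after the summit of the strongest liver peak within 1 kb of an annotated start site of the gene, 5′ to 3′ on the strand of the gene. Capitals mark matches to AGGTCA (the half-site of nuclear receptors), TCAAGGTCA (the extended site of NR5A2, which contains AGGTCA), CAAAGTCCA (HNF4A), ATCGAT (ONECUT), TGTTTAC (FOXA), GTTAAT (HNF1), the inverted repeat of AGGTCA spaced by 1 base that FXR binds, and the PROX1 consensus. The last 2 were allowed 2 mismatches, and both strands were searched.
Nr0b2, chr4:133552990-133553090: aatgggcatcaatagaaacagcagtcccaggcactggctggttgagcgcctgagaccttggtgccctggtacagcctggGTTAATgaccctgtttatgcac
Nr1h4, chr10:89506944-89507044: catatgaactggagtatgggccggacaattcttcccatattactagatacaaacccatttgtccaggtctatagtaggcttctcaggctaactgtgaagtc
Cyp8b1, chr9:121916402-121916502: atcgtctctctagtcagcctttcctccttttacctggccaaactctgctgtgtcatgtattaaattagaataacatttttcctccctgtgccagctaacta
Cyp27a1, chr1:74712915-74713015: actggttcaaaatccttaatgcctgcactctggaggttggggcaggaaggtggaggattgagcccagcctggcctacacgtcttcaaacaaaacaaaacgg
Baat, chr4:49503721-49503821: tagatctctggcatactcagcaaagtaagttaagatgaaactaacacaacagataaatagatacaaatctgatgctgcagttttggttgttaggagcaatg
Slc27a5, chr7:12999054-12999154: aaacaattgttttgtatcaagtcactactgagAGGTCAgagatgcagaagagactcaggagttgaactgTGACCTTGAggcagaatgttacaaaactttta
Slc10a1, chr12:80968078-80968178: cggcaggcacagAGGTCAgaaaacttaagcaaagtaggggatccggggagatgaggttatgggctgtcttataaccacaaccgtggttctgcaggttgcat
Abcb11, chr2:69342637-69342737: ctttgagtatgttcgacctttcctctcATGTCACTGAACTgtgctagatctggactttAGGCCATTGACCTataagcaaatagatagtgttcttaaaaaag
Abcb4, chr5:8928749-8928849: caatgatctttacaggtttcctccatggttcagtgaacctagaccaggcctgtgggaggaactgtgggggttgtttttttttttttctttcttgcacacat
Matches were found in 4 of the 9 sequences. Slc27a5 held AGGTCA on both strands, of which the reverse one extended to TCAAGGTCA, and Slc10a1 held a single AGGTCA. Abcb11, the main exporter of bile salts, held 2 inverted repeats, and the one 8 bases downstream of the summit differed from the full motif at 1 position. Nr0b2 held GTTAAT, 29 bases downstream of the summit. The other 5 windows held none of these motifs, which says only that the letters were not within 50 bases of the summit.

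In liver, the 2 regulators had the strongest promoter peaks. Nr0b2 (chr4:133553376-133556536, plus strand), which encodes SHP, had its strongest liver peak at chr4:133551870-133553781. The summit lay 336 bp upstream of the start site with a −log10 p of 34.7, rank 5 of the liver list. A second peak, at +16.2 kb and nearest to Gpatch3, was 2197 bp wide with a −log10 p of 24.2 (rank 369), and the other 12 liver peaks of the window reached at most 17.5. In MEFs the window held 6 peaks and none was nearest to Nr0b2. The closest lay 7.24 kb upstream, 145 bp from the start of Nudc, and was also covered in liver. In Hep3B cells the peak of the NR0B2 promoter was at chr1:26914168-26914502 in hg38, with the summit 309 bp upstream and a −log10 p of 6.41 (rank 7367, percentile 48.7, where 100 is the strongest peak of a list). It lay in an intron of NUDC.

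The human and mouse promoter summits of this gene fell on matching DNA. The same stretch of hg38 around the Hep3B summit, on the strand of NR0B2, are shown for comparison with the mouse sequence above. This sequence was chosen after its values were seen, and capitals mark GTTAAT and an overlapping AGGTCA on the reverse strand.
NR0B2, chr1:26914234-26914334: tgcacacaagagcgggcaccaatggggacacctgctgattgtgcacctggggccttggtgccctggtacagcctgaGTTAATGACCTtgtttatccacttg
Without gaps, 68 of 98 aligned bases were equal (69.4%). The longest shared run was ccttggtgccctggtacagcctg, 23 bases that began at base 56 of the mouse and base 53 of the human window. GTTAAT followed within a few bases in both species. The antibody and the source of the protein differed between these lists, and no conservation outside the window was examined.

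Nr1h4 (chr10:89454234-89533585, minus strand) had 27 liver peaks, 21 of them in the gene body. Its strongest, chr10:89531484-89534513, was 3030 bp wide and covered the 5′-most start site, with the summit 1.44 kb inside the gene and a −log10 p of 22.1 (rank 983). A second stood 336 bp upstream of an internal start site, chr10:89505651-89507796, with a −log10 p of 20.8. Together 6 of the 27 were in the top 10% of the liver list. The MEF list held 3 peaks there. The one at +2.04 kb overlapped the 3030 bp liver peak, and the strongest, in an intron 71.6 kb from the start, had a −log10 p of 10.4 (rank 217 of the MEF list) and also overlapped a liver peak. In Hep3B cells NR1H4 had 2 peaks, 1 of them 9.02 kb upstream with a −log10 p of 7.08 and the other at the start of GAS2L3 (7.28).

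Of the 3 hydroxylases, Cyp7a1 (chr4:6265612-6275633, minus strand) had its strongest peak outside the gene. The liver peak chr4:6245628-6246731 lay 29.4 kb downstream of the start site, in intergenic DNA, with a −log10 p of 23.7 (rank 450). The promoter peak had its summit 83 bp upstream and a −log10 p of 18.3. The region downstream of the gene held 10 of the 14 peaks, including others at +12.6 kb (18.3) and +36.4 kb (18.9). In MEFs, 2 peaks were listed, at +50.1 kb (−log10 p 7.08, percentile 75.3) and at +17.4 kb (4.56), and both overlapped a liver peak. CYP7A1 had no peak within 50 kb in Hep3B cells.

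The distal Cyp7a1 summit and the strongest summit near Slc10a1 are shown because both lay in the top 1% of the liver list. They are given as before, on the strand of the gene, and were chosen after their values were seen.
Cyp7a1 at +29.4 kb, chr4:6246163-6246263: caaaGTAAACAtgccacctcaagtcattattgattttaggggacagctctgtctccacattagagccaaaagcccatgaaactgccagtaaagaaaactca
Slc10a1 at +41.9 kb, chr12:80926735-80926835: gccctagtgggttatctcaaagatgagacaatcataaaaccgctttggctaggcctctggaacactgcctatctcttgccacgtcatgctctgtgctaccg
The Cyp7a1 sequence held TGTTTAC on the reverse strand, 46 bases upstream of the summit, as did the peak at +36.4 kb within 50 bases of its own summit. The Slc10a1 sequence held no match.

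Cyp8b1 (chr9:121914356-121916305, minus strand), a gene with 1 start site, had 22 liver peaks, of which 6 were in the top 10%. The promoter peak, chr9:121916090-121916720, was of middling strength (summit 147 bp upstream, −log10 p 14.2, percentile 68.2). The strongest, chr9:121903261-121905121, lay 12.5 kb downstream in an intron of Ackr2 with a −log10 p of 22.1 (rank 1011), and that gene's start site was the nearer one. A peak 7.36 kb upstream, nearest to Cyp8b1, reached 19.8. The only MEF peak, 12.5 kb upstream, had a −log10 p of 5.20 and did not overlap a liver peak, and CYP8B1 had none in Hep3B cells. Cyp27a1 (chr1:74713574-74737892, plus strand) had 15 liver peaks. The promoter peak chr1:74712115-74714285 was 2171 bp wide with a −log10 p of 15.8, and the strongest, chr1:74723466-74724394, lay in an intron 10.4 kb from the start with 18.6. The 5 MEF peaks all lay over 23 kb from a start site of Cyp27a1 and were nearest to other genes, and CYP27A1 had no peak in Hep3B cells.

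Both conjugation genes had their strongest liver peak close to a start site. For Baat (chr4:49489422-49506557, minus strand) it was chr4:49502976-49504462, 651 bp upstream of an internal start site, with a −log10 p of 19.1. A peak with its summit 16 bp from the 5′-most start site reached 15.9 and held CAAAGTCCA, the HNF4A motif. Of its 21 liver peaks, 5 were nearest to Baat. The others lay nearer to start sites of neighbours such as Acnat1, an acyltransferase gene related to Baat. Slc27a5 (chr7:12988346-12998192, minus strand) had a 3094 bp peak, chr7:12996959-13000052, with the summit 912 bp upstream and a −log10 p of 19.6. In MEFs, Baat had 1 peak, at the start of Mrpl50, and Slc27a5 had 9, none nearest to it. In Hep3B cells, SLC27A5 (hg38) had the peak chr19:58499225-58499749, 96 bp upstream of an internal start site, with a −log10 p of 6.19. That was the weaker of the 2 human promoter peaks, at percentile 42.1.

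Among the transporters, Slc10a1 (chr12:80953183-80968705, minus strand) had 29 liver peaks, the highest number of the set. The promoter peak chr12:80967709-80969092, 49 bp from a start site, had a −log10 p of 17.9. The strongest, chr12:80925602-80927416, lay 41.9 kb downstream of the 5′-most start site with 25.4 (rank 183), beside 2 more peaks of the top 10% (20.5 and 18.9). The nearest coding start site of all 3 was that of Srsf5, 15.3 to 18.7 kb away, so their assignment to Slc10a1 rests on the 50 kb window alone. The single MEF peak and the single Hep3B peak of this window were both within 1 kb of the Srsf5 start, a splicing factor gene. Abcb11 (chr2:69238282-69342616, minus strand) had the fewest liver peaks, 7, of which 1 was in its long gene body. Its promoter peak, chr2:69340579-69343277, was broad at 2699 bp, with a −log10 p of 14.2. The strongest peak of the window, chr2:69368861-69369362, was barely higher at 14.6 and lay 26.6 kb upstream, nearer to Dhrs9. In MEFs the Abcb11 window held 3 peaks, the strongest at 6.09. In Hep3B cells ABCB11 had 2, the stronger at 8.65 (percentile 94.3).

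Abcb4 (chr5:8893717-8959231, plus strand) had 27 liver peaks. At the coding start site the liver peaks were weak, with −log10 p of 8.28 at −34 bp (percentile 4.94) and 9.45 at +494 bp. The MEF peak chr5:8893272-8893944, with a summit 17 bp upstream and a −log10 p of 5.59 (percentile 39.6), overlapped the first of them. Stronger liver peaks lay inside the gene and on both sides of it. The peak chr5:8901703-8902909 in an intron at +8.36 kb had 22.9 (rank 698), and a peak at −20.1 kb had 22.6. Beyond the 3′ end of the gene, chr5:8999082-9000924, nearest to Crot, had 20.2 (rank 2275). The peak chr5:8927748-8929058 at an internal start site of a noncoding transcript had 19.6. In Hep3B cells ABCB4 had no peak within 50 kb. Values of −log10 p were compared within a list only.

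**Figure D2:**
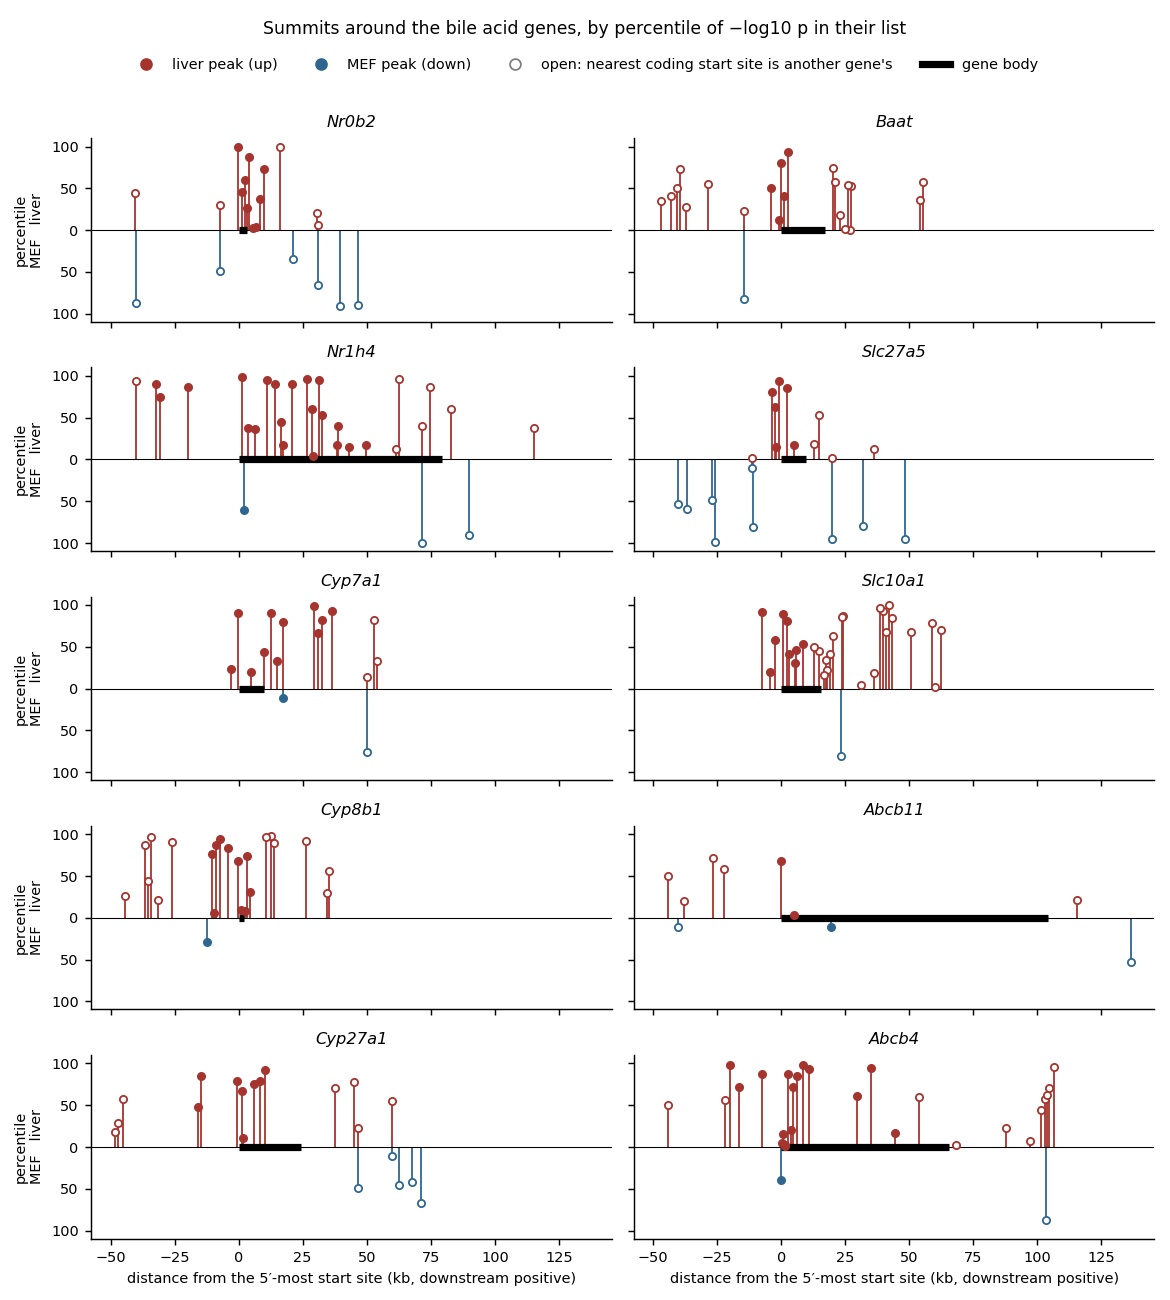
Each panel shows 1 gene, with the distance of every summit from the 5′-most start site on the horizontal axis (kb, downstream positive) and the percentile of its −log10 p within its own list on the vertical axis, liver upward and MEF downward. Filled points have the gene's own start site as the nearest coding one and open points that of another gene; of the 187 liver and 33 MEF peaks, 96 and 5 were filled.

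Within liver the promoter peaks spanned −log10 p from 14.2 (Cyp8b1 and Abcb11) to 34.7 (Nr0b2). All 10 exceeded the median of 11.3 over the strongest promoter peaks of all genes that had one, Abcb4 only through the peak at its internal noncoding start site, since its peaks at the coding start site (8.28 and 9.45) were below it. Of those genes, 75.4% had a weaker promoter peak than Cyp8b1 and 92.1% a weaker one than Cyp7a1. The 16 liver peaks at the genes' own start sites were also broad, with a median width of 1226 bp against 536 bp for all liver peaks within 1 kb of a coding start site. For 8 of the 10 genes the promoter peak was among the 14369 strongest peaks of the liver list, the number that the shortest list holds. Cyp8b1 (rank 15969) and Abcb11 (rank 15846) were the exceptions.

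Peaks were also more numerous around these genes in liver. The 10 genes had a median of 18 liver peaks (7 to 29), against a median of 3 over all mouse genes, and 6 of them exceeded the 90% of genes with the fewest. Abcb11 had more than 70.7% of genes. All 10 had at least 1 peak in the window, as did 69.2% of all genes. The windows include the gene body, so long genes had more room. Of the 187 peaks, 30 (16.0%) belonged to the top 10% of the liver list, and 105 exceeded its median −log10 p. By position, 86 summits were intergenic, 78 intronic, 17 in untranslated exons, 4 in coding exons and 2 in noncoding exons. The nearest coding start site was the gene's own for 96 (51.3%, Wilson interval 44.2 to 58.4%), beside 39.9% over the windows of all genes. At the border, 5 liver summits lay 45 to 50 kb from a gene (median −log10 p 10.9) and 6 just outside, up to 55 kb (12.9).

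In the MEF and Hep3B windows most peaks were nearest to other genes. In MEFs the median was 2.5 peaks per gene against 4 over all genes. All 10 genes had at least 1, beside 81.3% of all genes. The gene's own start site was the nearest for 5 of 33 peaks (15.2%, 6.65 to 30.9%), beside 35.1% over all windows. In Hep3B cells 6 of 10 genes had a peak, beside 72.0% of all genes, and CYP7A1, CYP8B1, CYP27A1 and ABCB4 had none. The median was 1 peak per gene, the same as over all human genes. Of the 20 Hep3B peaks, 5 were nearest to the gene itself (25%, 11.2 to 46.9%), beside 33.2%. High ranks within a list were not limited to liver. Of the 33 MEF peaks, 6 (18.2%) belonged to the top 10% of the MEF list and 20 exceeded its median −log10 p. Of the 20 Hep3B peaks, 1 (5%) belonged to the top 10% of its list and 14 exceeded its median.

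**Figure D3:**
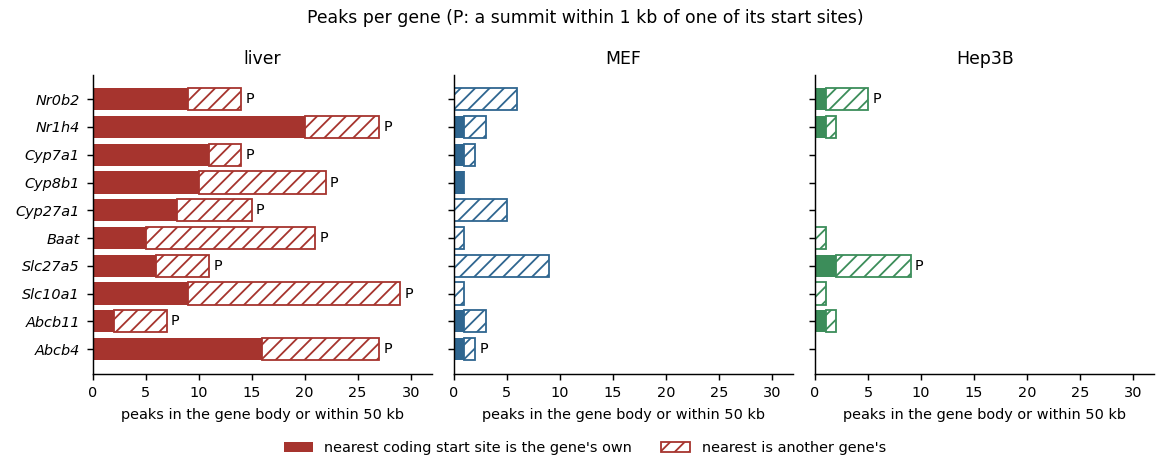
Number of peaks in the gene body or within 50 kb of each gene in the 3 lists, split by whether the nearest coding start site is the gene's own (solid) or another gene's (hatched). P marks a summit within 1 kb of one of the gene's start sites; Slc10a1 had 29 liver peaks and 1 in each of the other lists.

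Many of the neighbours with a MEF promoter peak had one in Hep3B cells too. In MEFs 16 of the 33 peaks lay within 1 kb of the start of another gene, at 14 different neighbours. They included Nudc and Gpn2 next to Nr0b2, Mrpl50 next to Baat, Zfp446, Zbtb45, Trim28 and Ube2m next to Slc27a5, Srsf5 next to Slc10a1, Spc25 next to Abcb11 and Crot next to Abcb4. Of the 14, 11 also had a Hep3B peak at the start of the human gene inside the window, and 7 also had a liver peak at the start. A promoter peak was found at 45.2% of all human genes and 62.1% of CpG-rich human promoters in Hep3B cells, and at 28.3% of all mouse genes and 40.3% of CpG-rich mouse promoters in liver. These shares are not limited to genes with a MEF promoter peak, as the 14 were, and the shares among such genes are not given here. All 14 had a human gene of the same name (Zfp read as ZNF), and 12 had a Hep3B promoter peak anywhere. Gpatch3 and Chmp2a had none. MEF and Hep3B lists share the antibody and the use of overexpression, and what these promoters have in common was not tested.

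A smaller share of the liver peaks of the set than of the whole list overlapped a MEF peak. Of the 187, 16 did by at least 1 bp (8.56%, 5.34 to 13.4%), against 18.9% of all 50159 liver peaks. At the genes' own promoters it was 1 of 16 (6.25%, 1.11 to 28.3%), the Abcb4 peak. Of all liver peaks within 1 kb of a coding start site, 67.6% overlapped a MEF peak. The 1 of 16 is not separate from the MEF promoter count above, where Abcb4 alone had a peak. The 67.6% was also not split by CpG content. In MEFs a promoter peak was found at 90% of CpG-rich and 29.8% of CpG-poor promoters. At the promoters of the neighbours 9 of 16 overlapped (56.3%, 33.2 to 76.9%), and elsewhere in the windows 6 of 155 did (3.87%, 1.79 to 8.19%), against 10.7% of all liver peaks over 1 kb from a coding start site. Counted from the MEF side, 14 of the 33 peaks of the windows overlapped a liver peak (42.4%, 27.2 to 59.2%), against 21.4% of all MEF peaks. At the promoters of the neighbours it was 7 of 16 (43.8%, 23.1 to 66.8%), against 35.7% of all MEF peaks within 1 kb of a coding start site. Away from promoters it was 6 of 16 (37.5%, 18.5 to 61.4%), against 14.7%. These windows held a median of 18 liver peaks against 3 over all genes, which these shares do not take into account. The intervals treat peaks as independent, though peaks of 1 gene share a locus.

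**Figure D4:**
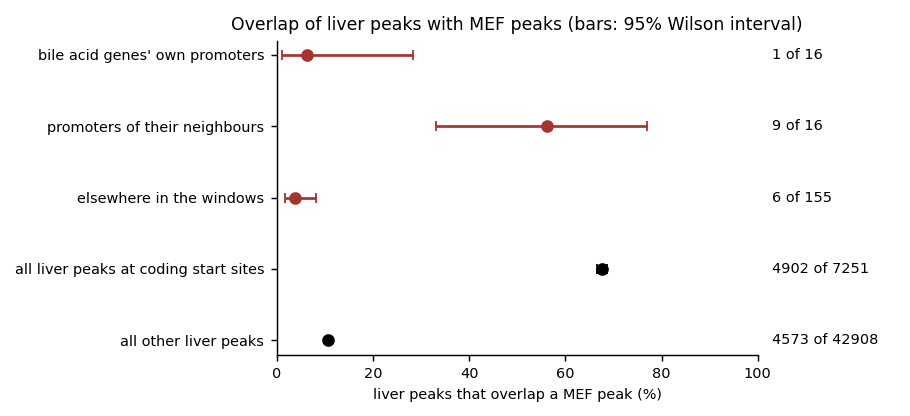
Share of liver peaks (%) that overlap a MEF peak by at least 1 bp, with 95% Wilson intervals and the counts at the right, for peaks in the windows of the bile acid genes (red) and in the whole liver list (black). The genes' own promoters stood at 1 of 16, the promoters of their neighbours at 9 of 16.

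The nuclear receptor half-site AGGTCA lay within 50 bp of 42 of the 187 liver summits (22.5%, 17.1 to 29.0%), against 16.5% of all liver summits. Within 100 bp it was 52 of 187 (27.8%), against 26.0%. Within 50 bp the share was 20.8% for peaks nearest to the gene itself and 24.2% for the others. Nr0b2 had 7 such peaks of 14, Abcb11 4 of 7 and Cyp7a1 1 of 14. In MEFs, 0 of 33 peaks held it, beside 6.00% of the MEF list, and in Hep3B cells 1 of 20, the NR0B2 promoter peak, beside 4.99%. The FXR-type inverted repeat was found at 6 liver peaks (3.21%, 1.48 to 6.82%, against 1.52% of all). They included the Abcb11 promoter, a peak 4.12 kb downstream of the Nr0b2 start, 1 at −32.1 kb of Nr1h4 and 1 at −10.5 kb of Cyp8b1. TGTTTAC was found at 11 (5.88%, 3.32 to 10.2%, against 3.56%), GTTAAT at 10 (5.35%, against 4.35%), and CAAAGTCCA, TCAAGGTCA and ATCGAT at 3 each (1.60%, against 1.42%, 0.700% and 1.09%). The PROX1 consensus was matched at 4 (2.14%), the same share as in all liver peaks (2.15%). It was a 12-base sequence allowed 2 mismatches and sought within 50 bp of the summit. The study sought a database motif over whole peaks, so these shares cannot be set beside its counts of peaks with a motif. Median GC within 50 bp of the summit was 46.5% for the set and 48.5% for the list.

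Other genes of the pathway were read from a list of 41 synthesis, transport and regulation genes outside the set. In liver 31 of 41 had a promoter peak (75.6%), in MEFs 18 of 41 (43.9%) and in Hep3B cells 17 of 39 with a human entry (43.6%), beside the 28.3%, 56.5% and 45.2% of all genes given above. By role, liver had 9 of 12 synthesis, 10 of 13 transport and 12 of 16 regulation genes. In MEFs they differed in number: 8 of 12 synthesis genes, 2 of 13 transport genes and 8 of 16 regulators had a promoter peak. In Hep3B cells the counts were 6 of 11, 4 of 12 and 7 of 16.

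The strongest liver promoter peaks of the synthesis genes were at Acox2 (−log10 p 22.0) and Amacr (20.3), which act in peroxisomal side-chain shortening, and Akr1d1 (19.8), the 5β-reductase. Amacr also had a promoter peak in both cultures and Akr1d1 in Hep3B cells (percentile 96.1 of that list), while Acox2 had none in either. The strongest of the transport genes were at Slco1a1 (18.9) and Slco1b2 (16.7), organic anion uptake carriers, and Abcc2 (16.3), the canalicular export pump for conjugates. None of these 3 had one in MEFs or, where there was a human entry, in Hep3B cells. Among regulators they were at Ppara (22.7), the fatty acid receptor, Nr1i3 (18.5), the xenobiotic receptor CAR, and Foxa2 (17.7). Ppara also had a promoter peak in MEFs (percentile 95.6 of that list) and Foxa2 in both cultures, while Nr1i3 had none in either. Some genes had a promoter peak outside liver and none in liver. The synthesis genes among them were Cyp46a1, the cholesterol 24-hydroxylase of brain (8.46 in MEFs and 8.84 in Hep3B cells), Ch25h (4.84 in MEFs) and Cyp7b1 (3.56 in MEFs). The transporter was Slc51b (4.55 in Hep3B cells). The regulators were Fgf15 (6.76 in MEFs), Klb (6.25 in Hep3B cells) and Vdr (4.60 in MEFs). Within their lists, Cyp46a1 stood at percentiles 93.0 (MEFs) and 97.0 (Hep3B cells), Fgf15 at 68.7 and Klb at 44.2. The others were low: Ch25h at 18.1, Vdr at 12.3, Slc51b at 1.61 and Cyp7b1 at 0.0962, so these calls were near the floor.

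**Figure D5:**
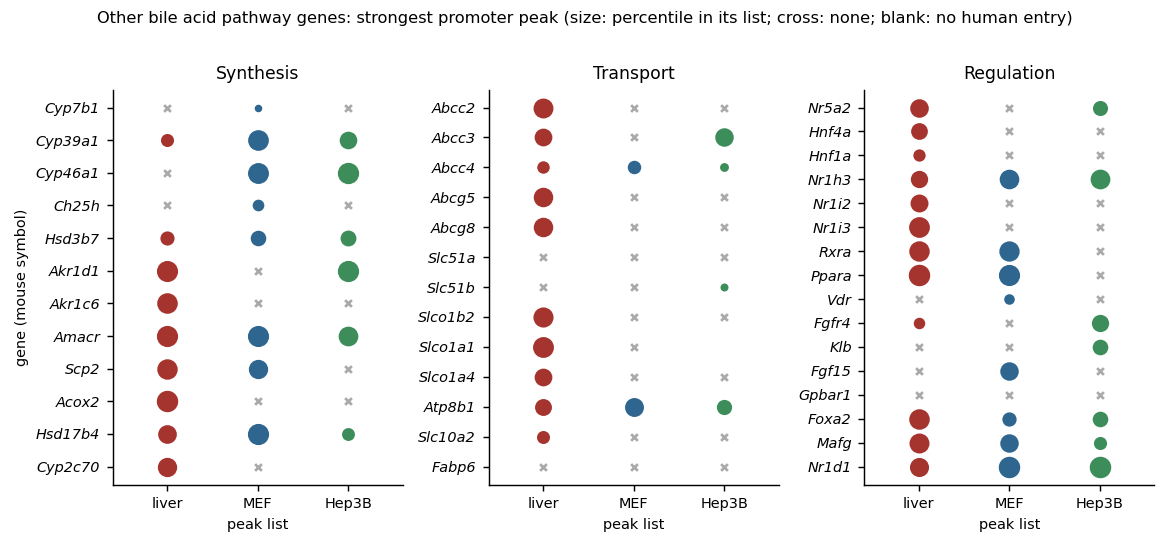
Strongest promoter peak of 41 other bile acid pathway genes in the 3 lists, by role; the area of a point grows with the percentile of its −log10 p within its list, a cross marks no summit within 1 kb of a start site, and a blank marks no human entry. Liver had a point for 31 of 41 genes, MEFs for 18 and Hep3B cells for 17 of 39.

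The labelled tissue was checked at marker genes, where a peak marks the factor and not expression. All 8 hepatocyte markers had a liver promoter peak, as had 1 of 5 cholangiocyte markers (Spp1), 1 of 4 endothelial markers (Stab2), 0 of 4 Kupffer cell and 0 of 5 fibroblast or stellate markers. MEFs had 1 of 8 hepatocyte, 2 of 5 cholangiocyte (Sox9 and Epcam) and 4 of 5 fibroblast or stellate markers, and 0 of the endothelial and Kupffer cell markers, as in Hep3B cells. Hep3B cells, a line of hepatic origin, had 1 of 8 hepatocyte markers (CPS1), 3 of 5 cholangiocyte and 2 of 5 fibroblast or stellate markers. Over all genes a promoter peak was found at 28.3% in liver, 56.5% in MEFs and 45.2% in Hep3B cells. With 4 to 8 markers per cell type, counts near these shares say nothing about a cell type.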

How the data were processed

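According to the study's methods and the submitters' notes, paired reads were trimmed with Trim Galore 0.6.6 and aligned with Bowtie2 2.4.2 to mm10 or hg38, and Genrich 0.6.1 then called 1 joint list from all samples of an antibody group, with a lenient q-value. The study describes the sites as a comparison with IgG, but its stated command has no control file, and IgG was not examined here. The deposited lists hold, per peak, a score (capped by the authors' caller and not used for ranking), a signal (the area under the significance curve, as summed by the authors), and the deposited −log10 p and −log10 q at the summit. The lowest area was 500 in liver and 200 in the other lists.

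Summits were assigned with Python 3.11.15 to genes and start sites of GENCODE vM21 (mouse) or v44 (human), all annotated transcripts counted and mitochondrial genes left out. A promoter peak has its summit within 1 kb of a start site of the gene. Rank is by −log10 p within a list. Sequence was read from GRCm38.p6 (mm10) and hg38. The sequence at 1 promoter summit is not reported here. Assignment and motif counting were tested on simulated data. All 10 genes were named with their strongest liver peak and with the strongest promoter peak of each list that held one. Of the other MEF and Hep3B peaks, only some were described. Of the pathway list, the 3 strongest liver promoter peaks per role and up to 3 with a promoter peak in a culture alone were named. The genes, lists, motifs and alternatives were chosen with earlier results of these data known, and the CpG split was added after the counts were seen. IgG lists and lists per sample were not used here, so intervals are Wilson intervals of counts and no test was run.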

Additional observations from a re-analysis of the deposited data

How the results depend on the processing

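No paired analysis was possible because each list pools the samples of its group, and no sample could be left out for the same reason. Of 79 recomputed counts, 58 stayed within 1.5 times the reported one and 21 did not. The liver promoter count stayed at 8 to 10 of 10 in each alternative. The MEF promoter count of 1 fell to 0 with equally long lists and with the area floor of the liver list. It also fell to 0 with CpG-poor promoters only, an alternative chosen after seeing the data. The Hep3B count of 2 fell to 0 with the area floor of the liver list. Apart from the CpG split above, shares over all genes under these alternatives are not given here. Whether the contrast with all genes holds under them was therefore not tested.

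With only the peaks whose nearest coding start site is the gene's own, the peak counts were 96 in liver, 5 in MEFs and 5 in Hep3B cells, and 5 genes had a MEF peak. With equally long lists they were 69 in liver and 16 in MEFs, and with the area floor 10 in Hep3B cells. Windows of 25 kb left 16 MEF peaks. Windows of 100 kb held 72 MEF and 32 Hep3B peaks, and then all 10 genes had a Hep3B peak. Overlap of liver with MEF peaks fell from 16 to 7 with summits within 100 bp, 3 for peaks nearest to the gene, and 1 with equally long lists. The overlap of all liver peaks under these settings is not given here. The 42 summits with AGGTCA became 22 within 25 bp (11.8%, against 9.48% of all liver peaks), 152 with 1 mismatch (81.3%, against 77.8%) and 20 for peaks nearest to the gene. These settings changed the number of peaks, the width searched or the overlap required, and what moved each count was not tested. Depth is unknown, so a gene without a peak is not shown to be unbound.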

Other observations

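Some other genes of the pathway had still more liver peaks in their windows than the 10 genes, and these were picked after their values were seen. Ppara had 47 liver peaks in the gene body or within 50 kb, Scp2, a sterol carrier gene, 38, Hnf4a 37, Nr5a2 36 and Rxra 34. In MEFs the same windows held 8, 4, 8, 4 and 15 peaks. Vdr, the vitamin D receptor gene, had 0 liver peaks and 10 MEF peaks. Over all mouse genes the median was 3 liver and 4 MEF peaks, and 6759 of 21911 genes had 0 liver peaks. The windows include the gene body, and the lengths of these genes were not compared.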
